A study of Mus musculus with 8 samples.

Results

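The immediate early AP-1 and Egr factors are 10 genes: Jun and Junb, Fos, Fosb and Fosl1, Atf3, Egr1, Egr2 and Egr3, and Ier3. They were taken by gene symbol, with every probe set annotated to 1 of these symbols alone, which gave 14 of the 45101 probe sets on the array and 10 of 18193 annotated genes. Their signals were read on Affymetrix expression arrays of 2 mouse cell lines, NIH3T3 embryonic fibroblasts and B16F10 melanoma cells, both kept in serum-containing medium. Each line had 1 control array and 3 arrays of cells given virus carrying PGC7, a maternal and germ cell protein also called Stella or Dppa3. In NIH3T3 these were clone 1, clone 2 and a culture that had not yet been cloned, called uncloned here, and in B16F10 they were clones 1, 2 and 3. The genotype field of all PGC7 samples reads PGC8 and calls each of them pre-cloned, so the sample titles were used for the groups. If the controls were given a virus without PGC7, which promoter drove PGC7, and the time between medium change and harvest are details not given in the sources used here. Since 2 of the NIH3T3 and all B16F10 PGC7 arrays are clones, a p-value below speaks of the spread between these cultures alone, and the lone control of a line has no spread of its own. The introduced gene itself, Dppa3 at probe set 1424295_at, had a signal in NIH3T3 of 69.8 in the control, 101 in the uncloned culture, 29.7 in clone 1 and 55.4 in clone 2. It was 23.5 in B16F10 control cells and 70.0, 117 and 71.0 in their clones 1, 2 and 3. So at this probe set both NIH3T3 clones lay below their control, against their label, while the uncloned culture and the 3 B16F10 clones lay above theirs. Neither change was called (log2 -0.28 and 1.51, adjusted p = 0.802 and 0.270, limma), and whether this probe set reads the viral copy was not tested. PGC7 array therefore means throughout an array labelled PGC7, and directions in NIH3T3 rest on that label.

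Immediate early genes are switched on within minutes of a signal, without new protein synthesis, mostly through the ERK and other MAP kinase cascades acting on factors already bound at their promoters. Jun and Fos proteins pair through leucine zippers to form AP-1, which binds DNA and drives genes of growth, invasion and stress. Egr proteins are zinc finger activators that bind GC-rich sites and are restrained by Nab corepressors. Atf3 is a stress-induced member of the same zipper class as Fos and Jun, and Ier3 codes for a short-lived regulator of survival signalling that is itself an early response gene.

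In both lines, Jun, Egr2 and Atf3 were higher in the PGC7 arrays than in the control. Fosl1, Egr3 and Ier3 rose in NIH3T3, and Egr1 rose 9.39-fold in B16F10 while its signal in NIH3T3 was below the control in every PGC7 array. Fos, Fosb and Junb were not called in either line. Signals are in arbitrary units after each array was scaled to a 2% trimmed mean of 500. Changes are differences of log2(signal + 9), PGC7 minus control, and a gene was called at an adjusted p under 0.05 in limma's moderated test over 25236 probe sets, with a gene represented by its brightest tested probe set. In NIH3T3, 6 of the 10 genes were called higher and 0 lower, where 7.87% of all 11643 tested genes were called higher and 7.35% lower. In B16F10, 4 of 10 were called higher and 0 lower, against 1.18% and 0.386% of all genes. The 10 genes were chosen with earlier results of these data known, so an excess over such shares may be partly built in. The 3 genes called higher in both lines were 3 of the 6 and 3 of the 4, and 0.198% of all genes were called higher in both. That count of 3 became 1, Jun, without B16F10 clone 1 or 2, and 2 without NIH3T3 clone 1 or 2 or B16F10 clone 3, while it was 3 without the uncloned culture. The median change of the 10 genes was 1.46 in NIH3T3 and 1.07 in B16F10, beside -0.04 and 0.05 for all tested genes. The B16F10 median and count of 10 include Egr3 and Fosl1, whose signals in that line were near background. In RNA of whole cultures, fewer cells expressing a gene and less RNA per cell cannot be told apart.

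**Figure D1:**
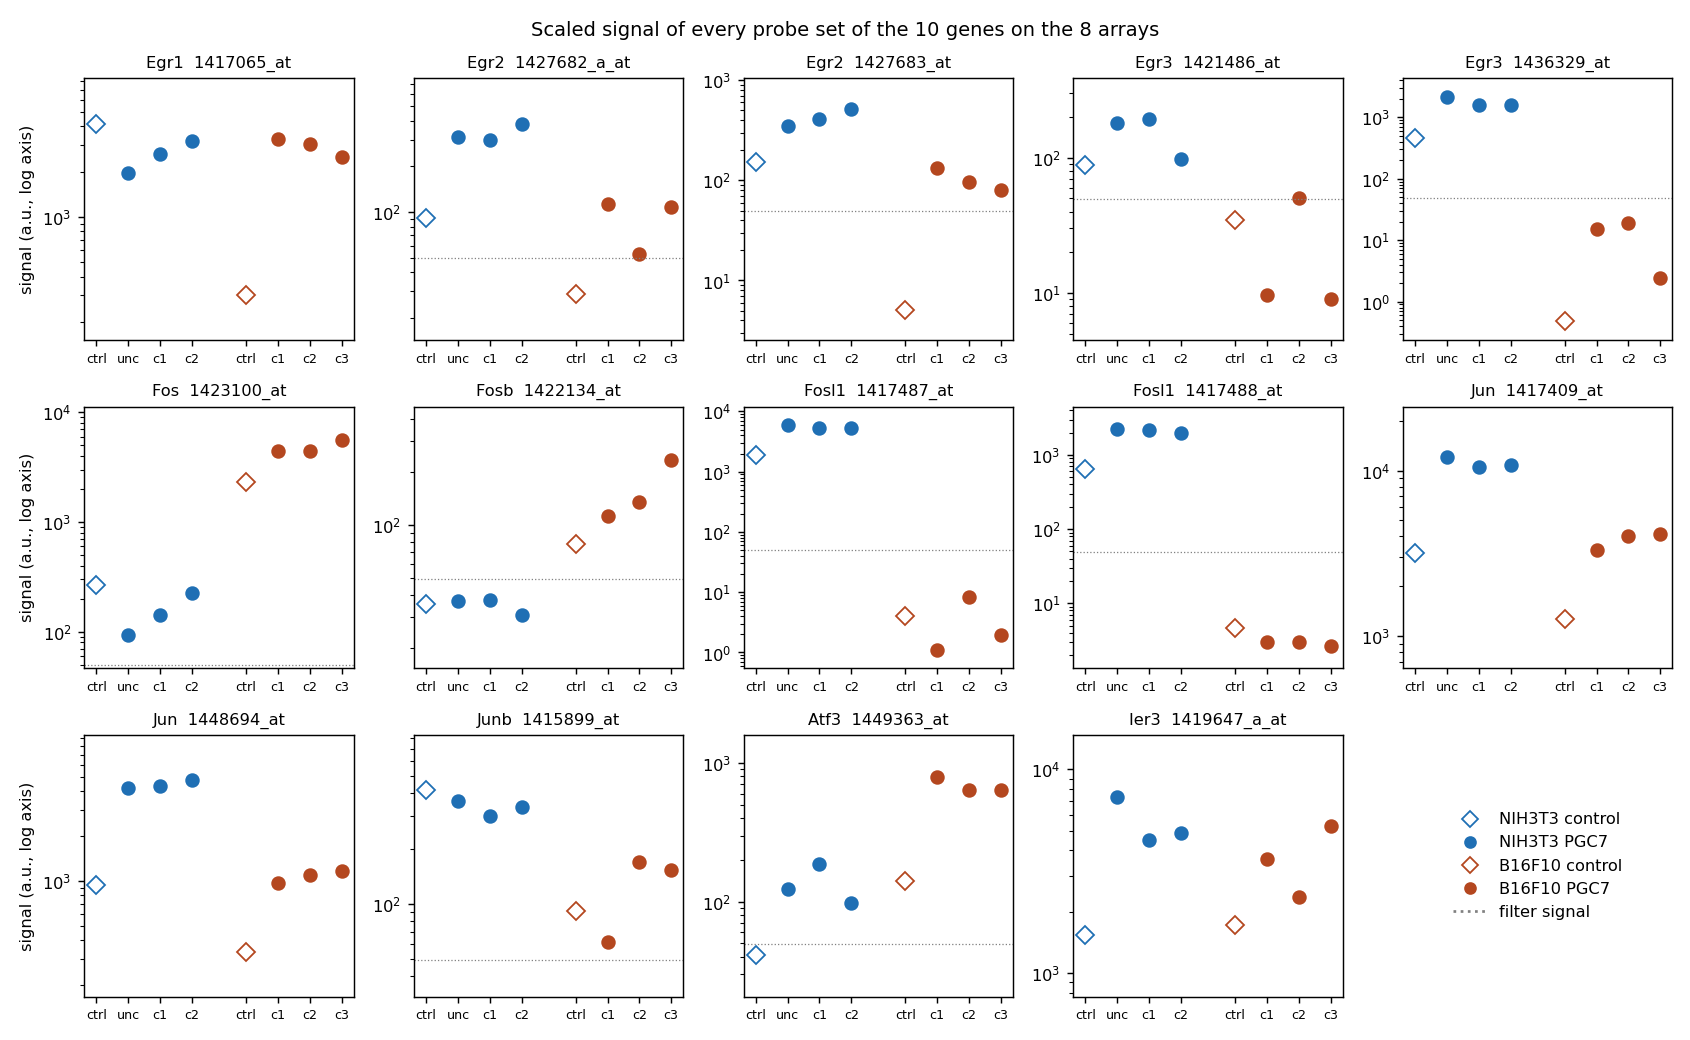
Scaled signal in arbitrary units, on a log axis, for each of the 14 probe sets on the 8 arrays: NIH3T3 control, uncloned (unc) and clones 1 and 2 (c1, c2) in blue, B16F10 control and clones 1 to 3 in red, controls as open diamonds. The dotted line is the filter signal of 49.3. Jun and Egr2 rose above the control in all 6 PGC7 arrays, and the Fosl1 signals of B16F10 lie between 1.09 and 8.23.

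Across the whole series, the arrays behaved according to their line labels. The summed signal of 8 melanocyte markers was 641 to 880 in the NIH3T3 arrays and 111100 to 144900 in B16F10, and that of 9 fibroblast markers was 79340 to 121400 in NIH3T3 and 630 to 929 in B16F10. In NIH3T3 the fibroblast sum moved with the groups, from 121400 in the control to at most 88010 in the PGC7 arrays, and a sum over 6 macrophage markers went from 545 to between 889 and 1116. Of the 9 fibroblast markers 3 were called lower there, Col1a1, Lum and Postn, and 0 higher, beside 7.35% and 7.87% of all genes. Of 4 macrophage markers tested 1 was called higher, Cd14, and 0 lower, beside 7.87% and 7.35%. The part of either marker sum in the results below was not tested. The correlation of the control with PGC7 arrays over tested probe sets was 0.912 to 0.920 in NIH3T3 and 0.970 to 0.977 in B16F10, below the 0.962 to 0.978 and 0.983 to 0.987 among PGC7 arrays of those lines.

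The promoters of Jun, Atf3, Egr2 and Fos are shown because the first 3 genes rose in both lines and Fos, a partner of Jun, was called in neither. They are RefSeq windows of assembly GRCm38.p6 that run from 250 bases before to 50 after the annotated start, and 7 of the 10 genes had a window that was used here. Capitals mark 4 kinds of letters searched on both strands: TGACG, a part of the cyclic AMP response element bound by CREB and ATF proteins, the 2 known Jun promoter sites TTACCTCA and TGACATCA, and the CArG box bound by serum response factor. The windows are chr4:95052173-95052472 on the minus strand for Jun, chr1:191183284-191183583 on the minus strand for Atf3, chr10:67537620-67537919 on the plus strand for Egr2 and chr12:85473640-85473939 on the plus strand for Fos.
Jun: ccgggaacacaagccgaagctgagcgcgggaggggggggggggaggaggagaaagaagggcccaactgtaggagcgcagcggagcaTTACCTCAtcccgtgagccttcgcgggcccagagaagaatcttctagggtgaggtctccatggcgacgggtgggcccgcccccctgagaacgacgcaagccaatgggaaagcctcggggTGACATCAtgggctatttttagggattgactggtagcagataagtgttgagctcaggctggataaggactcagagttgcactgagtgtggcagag
Atf3: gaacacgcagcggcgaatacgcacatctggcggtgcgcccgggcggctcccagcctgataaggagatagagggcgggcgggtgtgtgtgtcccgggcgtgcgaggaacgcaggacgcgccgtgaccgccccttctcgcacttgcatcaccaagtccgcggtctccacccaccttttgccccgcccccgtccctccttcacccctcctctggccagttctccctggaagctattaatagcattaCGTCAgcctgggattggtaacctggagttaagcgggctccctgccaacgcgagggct
Egr2: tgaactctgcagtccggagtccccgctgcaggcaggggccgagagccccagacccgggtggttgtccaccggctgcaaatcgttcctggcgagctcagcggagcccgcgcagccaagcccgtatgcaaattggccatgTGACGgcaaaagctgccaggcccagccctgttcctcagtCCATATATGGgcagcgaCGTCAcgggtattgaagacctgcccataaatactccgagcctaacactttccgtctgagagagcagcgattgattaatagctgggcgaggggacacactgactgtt
Fos: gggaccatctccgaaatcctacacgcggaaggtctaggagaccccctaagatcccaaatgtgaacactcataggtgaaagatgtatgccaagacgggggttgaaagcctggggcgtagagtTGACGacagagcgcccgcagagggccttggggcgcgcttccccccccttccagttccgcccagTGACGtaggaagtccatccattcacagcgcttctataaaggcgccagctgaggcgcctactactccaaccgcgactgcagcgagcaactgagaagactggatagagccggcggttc

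In the Jun window TTACCTCA starts 164 bases before the gene's start and TGACATCA 45 bases before it. TTACCTCA is found in 0.889% and TGACATCA in 3.62% of all 32851 promoter windows. The letters TGACG are in the windows of 5 of the 7 genes (Egr2, Fos, Fosb, Junb and Atf3) and in 20.8% of all windows. Of those 5, Egr2 and Atf3 were called higher in both lines, and Fos, Fosb and Junb were called in neither. A CArG box is in 1.63% of all windows and in 4 of the 5 Egr2 windows, which overlap in part, and in the printed one it lies from 73 to 64 bases before the start. The full element TGACGTCA (1.79% of all windows, and containing TGACG) and the AP-1 site TGANTCA (7.81%) were not found in the windows of the 7 genes. The Egr site GCGNGGGCG (5.55% of windows) was found in that of Fosb. These matches describe letters in a window and are not shown to be bound in these cells. No site farther than 250 bases before a start was searched. A missing match, as of the CArG box in the Fos window, thus says nothing of sites beyond it.

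Jun codes for the zipper protein that can form AP-1 alone or with any Fos protein. At probe set 1417409_at its signal in NIH3T3 was 3195 in the control, 12120 in the uncloned culture, 10560 in clone 1 and 10760 in clone 2. The B16F10 control gave 1278, and clones 1, 2 and 3 gave 3316, 4021 and 4167. Every PGC7 array of either line lay above its control, at 3.30 to 3.79 times in NIH3T3 and 2.60 to 3.26 times in B16F10. The log2 change was 1.80 ± 0.15 in NIH3T3 (± SE, limma adjusted p = 0.000328) and 1.57 ± 0.15 in B16F10 (adjusted p = 0.00391). The B16F10 call held in 15 of 16 alternatives and was lost with no variance trend (adjusted p = 0.0536). The second Jun probe set, 1448694_at, gave 2.23 and 1.66, also called in each line. The changes of the lines differed by -0.23 (95% interval -0.71 to 0.26, B16F10 minus NIH3T3, adjusted p = 0.587). With spike scaling that difference was -1.16 and called. In a fit of 1 shared change with line as an additive term, Jun had a log2 change of 1.68 ± 0.12 (adjusted p = 0.00200), the smallest p of all 25236 probe sets, and was called in all 15 alternatives. In that fit 2 of the 10 genes were called, Jun and Atf3, where 0.189% of all genes were called.

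Junb, whose protein opposes Jun at some genes, did not follow Jun. Its signal in NIH3T3 was 415 in the control and 366, 303 and 337 in the uncloned culture and clones 1 and 2. The B16F10 control gave 90.8, and clones 1 to 3 gave 61.9, 170 and 153, with clone 1 on the other side of the control from clones 2 and 3. The log2 changes were -0.31 ± 0.48 and 0.35 ± 0.48 (adjusted p = 0.724 and 0.793, limma), whose signs turned under spike scaling.

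The 3 Fos family genes, whose proteins enter AP-1 only as partners of Jun proteins, differed in which line they were seen and in how they moved. Fosl1, which codes for Fra-1, the Fos protein of migrating and Ras-transformed cells, had a signal of 1923 in the NIH3T3 control and of 5943, 5303 and 5387 in the uncloned culture and clones 1 and 2. These 3 arrays lay within 2.76 to 3.09 times the control. The log2 change was 1.52 ± 0.32 (1417487_at, adjusted p = 0.0192 in limma's test) and 1.72 ± 0.27 at 1417488_at (adjusted p = 0.00554). At 1417487_at the call was lost without NIH3T3 clone 1 (adjusted p = 0.0501) or clone 2 (0.0513). In B16F10 the signals were 3.98, 1.09, 8.23 and 1.94 in the control and clones 1 to 3, all below 8.75, the 25th percentile of all values, so no change could be read there.

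Fos was high in B16F10, where the control gave 2294 and clones 1, 2 and 3 gave 4441, 4477 and 5608. In NIH3T3 it was 267 in the control and 92.6, 143 and 227 in the uncloned culture and clones 1 and 2. All 3 B16F10 clones were above and all 3 NIH3T3 PGC7 arrays below their control, but neither change was called. The log2 change was 1.07 ± 0.38 in B16F10 (adjusted p = 0.235, limma) and -0.84 ± 0.38 in NIH3T3 (adjusted p = 0.187). The difference of 1.91 ± 0.54 between these changes had an adjusted p of 0.0736 in limma's test. Without the uncloned NIH3T3 array it was 1.61 (adjusted p = 0.0149) and without NIH3T3 clone 2 it was 2.22 (adjusted p = 0.0207). Without the uncloned array the B16F10 change was called too (adjusted p = 0.0344), as it was with the B16F10 arrays alone (0.00408). The fall in NIH3T3 was called without clone 2 (log2 -1.15, adjusted p = 0.0382).

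Fosb, a Fos paralogue best known from neurons and bone, passed the filter through B16F10 alone. The control of that line gave 78.3, and clones 1 to 3 gave 112, 134 and 233, each above the control (log2 0.89 ± 0.45, adjusted p = 0.400, limma). In NIH3T3 it was 35.5 in the control and 30.8 to 37.4 in the PGC7 arrays, below the filter signal of 49.3 on every array.

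Atf3, a zipper factor induced by cell stress and by serum that pairs with Jun proteins, rose in both lines. The B16F10 control gave a signal of 142, and clones 1, 2 and 3 gave 791, 641 and 641. In NIH3T3 it was 41.2 in the control and 124, 188 and 98.3 in the uncloned culture and clones 1 and 2. The NIH3T3 control lay below the filter signal of 49.3, so the size of the change there rests on a low control signal. The PGC7 arrays did not overlap the control in either line, at 4.51 to 5.57 times it in B16F10 and 2.39 to 4.57 times in NIH3T3. The log2 changes were 2.21 ± 0.35 (adjusted p = 0.0257, limma) and 1.49 ± 0.35 (adjusted p = 0.0263). They differed by 0.71 (95% interval -0.41 to 1.84, adjusted p = 0.439), a difference that was -0.11 under spike scaling. Over the alternatives, the B16F10 call held in 11 of 16 and the NIH3T3 call in 10 of 16. The B16F10 call was lost without clone 1, 2 or 3 of that line (adjusted p = 0.114, 0.0799 and 0.103) and the NIH3T3 call without B16F10 clone 1, 2 or 3 (0.0566, 0.0552 and 0.0551), which enter the shared spread. The shared change of 1.85 ± 0.27 (adjusted p = 0.0487) was not called when any of the 6 PGC7 arrays was left out (adjusted p = 0.0599 to 0.148).

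**Figure D2:**
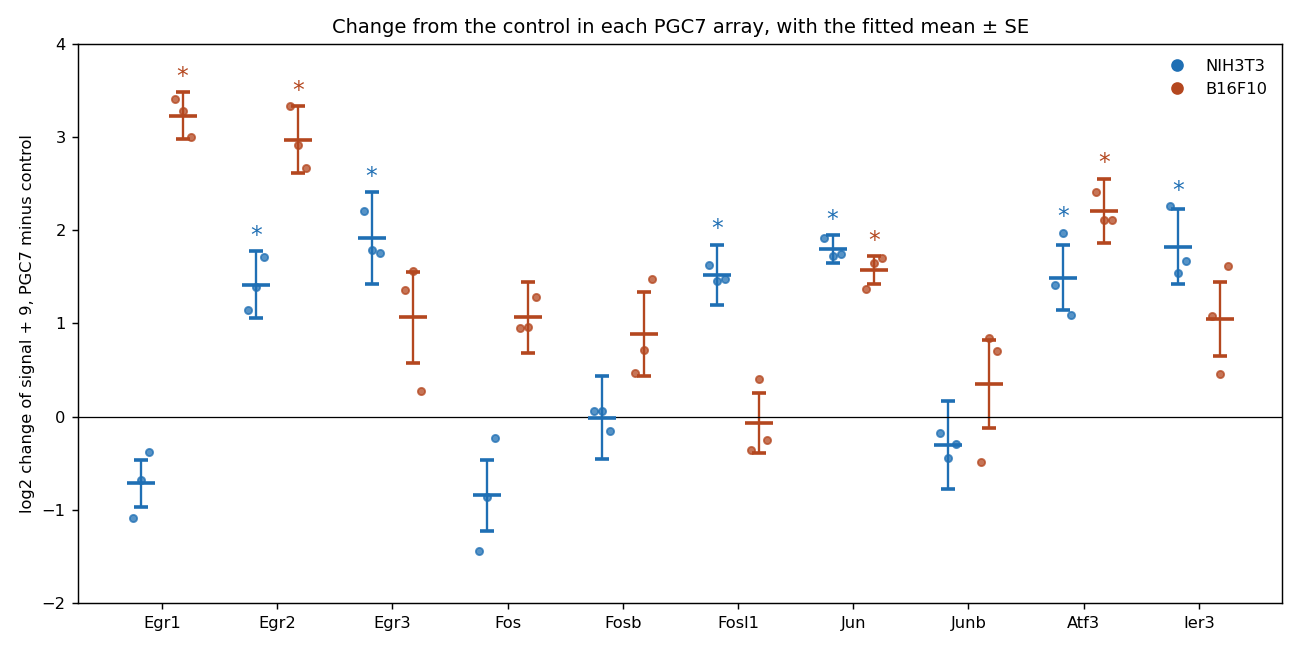
Log2 change of signal + 9 from the line's own control for the 10 genes, each at its brightest tested probe set. Points are the 3 PGC7 arrays of NIH3T3 (blue) or B16F10 (red), bars the fitted mean ± SE, and asterisks calls at an adjusted p under 0.05. Jun, Egr2 and Atf3 are called in both lines, and the Egr1 points lie at 3.01 to 3.41 in B16F10 and -1.09 to -0.38 in NIH3T3.

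Egr1, the zinc finger factor induced most widely by growth factors, showed the most unequal change. The B16F10 control gave a signal of 303, and clones 1, 2 and 3 gave 3300, 3032 and 2498, or 8.24 to 10.9 times the control. In NIH3T3 it was 4174 in the control and 1958, 2607 and 3195 in the uncloned culture and clones 1 and 2. The B16F10 clones thus reached signals within the range of the NIH3T3 arrays, and the B16F10 control was the lowest of the 8. The log2 change was 3.23 ± 0.25 in B16F10 (adjusted p = 0.00165, limma), ranked 12 by p among all probe sets, and -0.72 ± 0.25 in NIH3T3 (adjusted p = 0.102). The changes differed by 3.95 ± 0.36 (adjusted p = 0.00126), which was called in all 15 alternatives. Egr1 was the 1 gene of the 10 called for a difference between the lines, where 8.93% of all tested genes were called. That count was 2 without the uncloned NIH3T3 array, NIH3T3 clone 2 or B16F10 clone 2, with Fos added in the first 2 cases and Fosl1 in the last.

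Egr2, known for its part in myelination and hindbrain patterning, was called in both lines. At 1427683_at its signal in NIH3T3 was 153 in the control and 349, 415 and 522 in the uncloned culture and clones 1 and 2. The B16F10 control gave 5.10, and clones 1 to 3 gave 133, 97.0 and 80.9. The B16F10 control alone lay below the 25th percentile of all values, so the size of the change there rests on a background signal. The log2 changes were 1.42 ± 0.36 in NIH3T3 (adjusted p = 0.0360, limma) and 2.97 ± 0.36 in B16F10 (adjusted p = 0.0118). The latter was 1.85 with an offset of 32 and 4.07 with an offset of 1, called with each. The second probe set, 1427682_a_at, gave 1.75 (adjusted p = 0.0300) and 1.34 (adjusted p = 0.179), so the B16F10 call rests on 1 of the 2 probe sets. The NIH3T3 call held in 7 of 16 alternatives and was lost without NIH3T3 clone 1 or 2 (adjusted p = 0.0712 and 0.0791) or B16F10 clone 1 or 2 (0.0511 and 0.0641).

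Egr3, a close relative of Egr2 induced in activated lymphocytes and neurons, was detected in NIH3T3. At 1436329_at its signal was 458 in the control and 2145, 1610 and 1564 in the uncloned culture and clones 1 and 2, a log2 change of 1.92 ± 0.49 (adjusted p = 0.0374, limma). The call was lost without NIH3T3 clone 1 (adjusted p = 0.0731), clone 2 (0.0707) or B16F10 clone 1 (0.0594). The second probe set, 1421486_at, had 88.9 in the control and 179, 192 and 96.9 in those arrays (log2 0.70 ± 0.71, adjusted p = 0.569). In B16F10 the first probe set gave 0.476, 15.3, 19.1 and 2.45, and the second 34.8, 9.72, 50.3 and 9.01, in the control and clones 1 to 3. Only the signal of 50.3 passed the filter value, and the probe sets differed in direction.

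Ier3 had a signal in NIH3T3 of 1529 in the control and 7340, 4480 and 4896 in the uncloned culture and clones 1 and 2. The B16F10 control gave 1719, and clones 1, 2 and 3 gave 3634, 2356 and 5284. All 6 PGC7 arrays were above their control, from 2.93 to 4.80 times in NIH3T3 and from 1.37 to 3.07 times in B16F10, with B16F10 clone 2 nearest to its control. The log2 change was 1.82 ± 0.40 in NIH3T3 (adjusted p = 0.0216, limma) and 1.05 ± 0.40 in B16F10 (adjusted p = 0.266). The difference of -0.78 had a 95% interval of -2.07 to 0.52 (adjusted p = 0.470), and under spike scaling it was -1.71 and called.

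In NIH3T3, 6 of the 10 genes were at least 2-fold above the control in all 3 PGC7 arrays on the scale of signal + 9, and in B16F10 this held for 4, beside 4.01% and 2.6% of all tested genes. In NIH3T3, 3 genes (Egr1, Fos and Junb) were below the control in all 3 arrays, which was so for 36.5% of all genes, and the other 6 called ones lay above it, as did 31.2%. In B16F10, 8 of the 10 were above it in all 3 clones and 0 below in all 3, beside 41.3% and 31.9% of all genes. Among these 8 is Egr3, whose signals in B16F10 were all below the filter value at the probe set counted. The NIH3T3 count of 6 called genes was 3 without NIH3T3 clone 1 or B16F10 clone 1, and 4 without NIH3T3 clone 2, of which 1 was the fall of Fos. The median change of all probe sets was -0.07 in NIH3T3 and 0.02 in B16F10, and scaling on the poly-A spikes (control RNAs added in the labelling) set it to 0.35 and -0.45, while it was -0.19 in NIH3T3 on the deposited values. A direction here is meant against that median, and the genes called in NIH3T3 or B16F10 kept their direction under these scalings and under quantile normalization. The share of all NIH3T3 calls that were higher was 50.6%, and it became 36.7% with deposited values and 83.5% with spike scaling. For B16F10 these shares were 77.7%, 86.7% and 26.3%, and the 10 genes gave 0 lower calls in either line under each of these scalings.

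**Figure D3:**
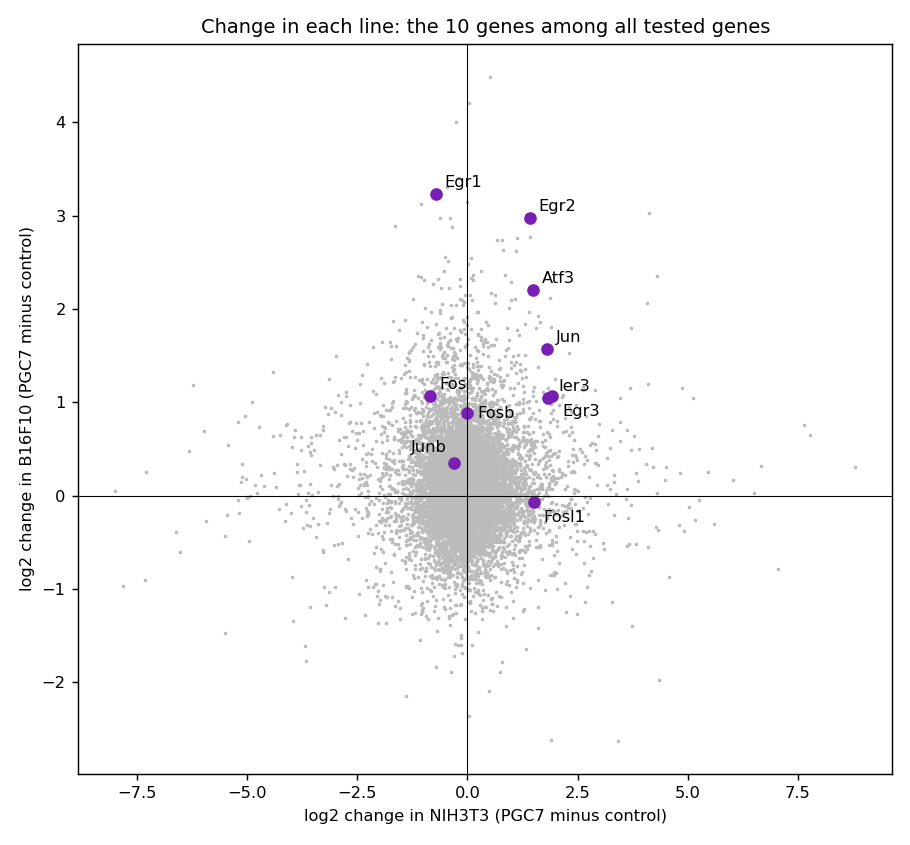
Log2 change in NIH3T3 (horizontal) and in B16F10 (vertical), PGC7 minus control, for 11643 tested genes in grey and the 10 genes in purple. Jun, Egr2, Atf3, Egr3 and Ier3 lie in the upper right, Egr1 and Fos in the upper left, and Fosl1 on the right near the horizontal axis.

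Between the lines themselves, B16F10 had more Fos (log2 4.49 ± 0.36), Atf3 (2.12 ± 0.24) and Fosb (1.65 ± 0.30), in the additive fit over 4 arrays of each line. NIH3T3 had more Egr2 (-2.35 ± 0.31, B16F10 minus NIH3T3), Junb (-1.60 ± 0.30) and Jun (-1.49 ± 0.10), the last 2 of which were not called on the values as deposited (-0.08 and 0.10). Fosl1 and Egr3 were called higher in NIH3T3 too, but with B16F10 signals near background their size is set by the scale, from -10.02 to -6.83 for Fosl1 and from -7.62 to -4.70 for Egr3 over the alternatives. That made 8 of 10 called, close to the 72.1% of all genes called for the lines. Fosl1 and Egr3 passed the filter through NIH3T3 alone and Fosb through B16F10 alone, so these 3 had to differ, and the other 7 passed in both. Egr1 (-0.78, adjusted p = 0.251, limma) and Ier3 (-0.41, adjusted p = 0.184) were not called. As deposited, Egr1 was 0.80 and Ier3 1.16, the latter called higher in B16F10.

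Other genes of the zipper class were called mostly in B16F10. Of 19 tested AP-1, ATF and related zipper genes, 5 were called higher and 0 lower in B16F10, with a median change of 0.57, beside 1.18% and 0.386% of all genes. In NIH3T3, 1 was higher and 1 lower (median -0.06), where 7.87% and 7.35% of all genes were. Jdp2, a repressor that binds AP-1 sites, was called in opposite directions. Its signal fell in NIH3T3 from 2790 to between 976 and 1120 (log2 -1.41 ± 0.16, adjusted p = 0.00108, limma) and rose in B16F10 from 753 to between 2448 and 3006 (1.88 ± 0.16, adjusted p = 0.00228). Ddit3, the CHOP stress factor, rose in B16F10 by 1.15 and Atf6, a sensor of unfolded protein, by 0.98. The other two, named after their values were seen, were Atf4 (0.65) and Cebpb (0.89). A second Ddit3 probe set (1443897_at) gave -0.06 in B16F10. Atf6 at 1453288_at and 1456021_at gave 0.87 and 0.75 there, not called (adjusted p = 0.172 and 0.191, limma). The Ddit3 and Atf6 calls, each at 1 probe set, were lost without NIH3T3 clone 1 or 2 or any B16F10 clone (adjusted p = 0.0532 to 0.166). Over all the related lists 7 genes were called in B16F10, a count of 20 without the uncloned NIH3T3 array, 4 and 3 without NIH3T3 clones 1 and 2, and 1, 2 and 1 without B16F10 clones 1, 2 and 3. Mafg, a small partner of other zipper proteins, rose in NIH3T3 by 1.04. Of the Egr corepressors, Nab1 rose in NIH3T3 from 2775 to between 5363 and 6072 (1.02 ± 0.11, adjusted p = 0.00111) and Nab2 was not called (-0.77, adjusted p = 0.0642).

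Further immediate early genes did not move as 1 block. Of 37 tested, 9 were called higher and 6 lower in NIH3T3 (median 0.00), beside 7.87% and 7.35% of all genes. In B16F10 2 were called higher and 0 lower (median -0.03), beside 1.18% and 0.386%. In NIH3T3 Ereg, the gene of the growth factor epiregulin, rose from 489 to between 3820 and 5539 (log2 3.16 ± 0.30, adjusted p = 0.000553, limma), and its B16F10 signals of 0.738 to 2.18 were at background. The kinase gene Plk2 fell from 5074 to between 457 and 741 (-3.09 ± 0.30, adjusted p = 0.000568), and the matrix protein gene Ccn2 fell from 2503 to between 151 and 602 (-2.79 ± 0.63, adjusted p = 0.0233). In B16F10 Ier2 rose from 1036 to between 1980 and 2310 (1.06 ± 0.16, adjusted p = 0.0228) and Zfp36l1, which codes for a protein that destabilises mRNA, from 2659 to between 4545 and 5426 (0.88 ± 0.12, adjusted p = 0.0174). The Ier2 call was lost without B16F10 clone 1, 2 or 3 (adjusted p = 0.0716 to 0.108) and that of Zfp36l1 without clone 1 or 3 (0.0767 and 0.0656). A second Zfp36l1 probe set, 1422528_a_at, gave 0.70 in B16F10 (adjusted p = 0.150, limma), so the call there rests on 1 probe set. In NIH3T3 Zfp36l1 fell (-1.06, and -0.94 at the second probe set).

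A further list held 15 genes of MAP kinase phosphatases and signalling inhibitors, not all of which act on ERK. In NIH3T3, 8 of the 15 were called higher and 3 lower (median 1.25), beside 7.87% and 7.35% of all genes. In B16F10 0 of 15 were called by limma (median -0.26), beside 1.18% and 0.386%, and 4 had an unadjusted p under 0.05. The difference between the lines was itself called for 6 of the 15, lower in B16F10 for 5 of them, beside 8.93% of all genes. Dusp4 rose in NIH3T3 from 89.9 to between 2340 and 2983 (log2 4.80 ± 0.17, adjusted p = 7.13e-06), Errfi1, an inhibitor of the epidermal growth factor receptor, from 985 to between 3766 and 9790 (2.47 ± 0.43, adjusted p = 0.00831) and Dusp6 from 1070 to between 5592 and 6523 (2.46 ± 0.14, adjusted p = 6.87e-05). The falls, named after their values were seen, were those of Spry1, Dusp1 and Dusp8. Of 6 serum response factor and ternary complex genes, 0 were called in either line by limma and 0 had an unadjusted p under 0.05. Of 10 kinase cascade genes Map2k1 rose (0.94 ± 0.17) and Braf fell (-0.82 ± 0.17) in NIH3T3. That 1 call in each direction stands beside 7.87% and 7.35% of all genes. The Braf call was lost without B16F10 clone 1 (adjusted p = 0.0501) and under spike scaling.

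**Figure D4:**
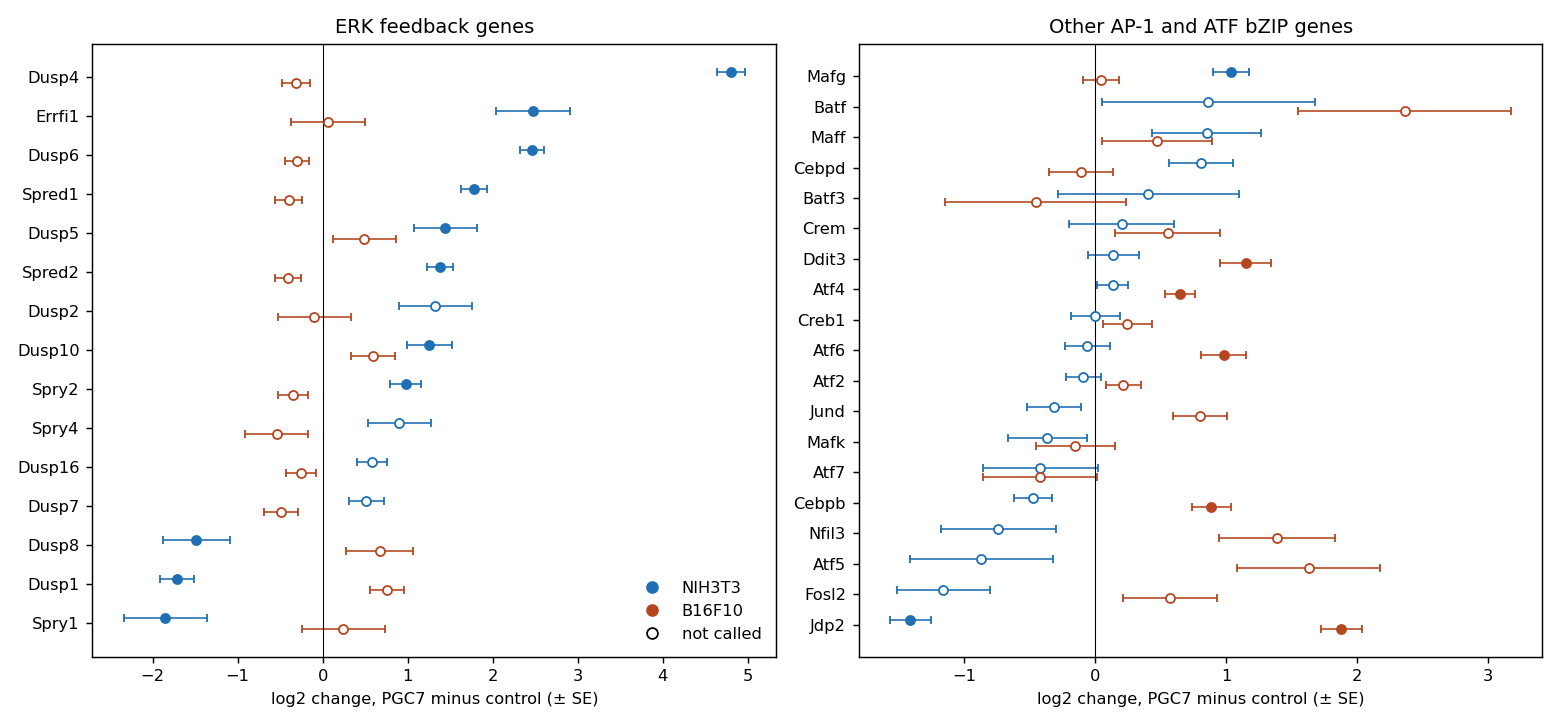
Log2 change ± SE, PGC7 minus control, in NIH3T3 (blue) and B16F10 (red), with filled points called at an adjusted p under 0.05. On the left are 15 genes of MAP kinase phosphatases and signalling inhibitors, headed ERK feedback genes, and on the right 19 other AP-1 and ATF zipper genes. Dusp4 and Dusp6 lie far to the right in NIH3T3 and at or left of 0 in B16F10, and Jdp2 lies on opposite sides of 0 in the lines.

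The genes whose pattern was most like that of the 10 over the 8 arrays were found by correlating each of 11633 other genes, centred within each line, with the median of the 10 centred likewise. The 5 nearest were Pde6d (r = 0.980), Esco1 (0.979), Cog4 (0.978), Commd4 (0.974) and Eps8 (0.972). These values describe arrays that share 2 controls, so the step from control to PGC7 sets most of them. A high r does not need a large change. The log2 changes in NIH3T3 and B16F10 were 0.719 and 0.566 for Pde6d and 0.152 and 0.122 for Esco1. They were 0.425 and 0.394 for Cog4, 0.313 and 0.233 for Commd4, and largest for Eps8 (1.136 and 0.873). Eps8, an actin-binding substrate of growth factor receptors, rose from 4679 to between 9544 and 10760 in NIH3T3 and from 7683 to between 13260 and 15360 in B16F10, and was called in both lines. Among the 10 themselves, each of which enters that median, Jun was nearest to it (r = 0.980) and Fos farthest (0.088), followed by Junb (0.105).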

How the data were processed

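The authors deposited 1 intensity signal per probe set and array on a linear scale, made with MAS5 per the submitters' processing notes, its release not given in the sources used here. Averaged between percentiles 2 and 98, a B16F10 array came to 500 and an NIH3T3 array to 143 to 189, so each was multiplied to 500. Values were taken as log2(signal + 9). Of 45101 probe sets, 64 controls were dropped, as were 19801 others whose mean in neither line reached the overall median (signal 49.3). The other 25236 were tested in R 4.3.3 with limma 3.58.1, with 4 group means on 8 arrays, a variance prior that follows intensity, two-sided tests and Benjamini-Hochberg adjustment. The lone controls were taken to vary as the PGC7 arrays did. Symbols came from the platform annotation, updated by gene identifier to GRCm38.p6 (34958 probe sets with 1 symbol, 932 with several, 9211 with none). The number of arrays limits the precision.

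The genes and lists were chosen with earlier results of these data known, so counts above the shares of all genes may be partly built in. All 10 genes are named, and of each related list up to 3 called genes with the largest change per line. The fit was tested on simulated data. There every array, controls included, had the spread of the B16F10 PGC7 arrays, so the true spread of a control was not tested. Alternatives covered scaling, offset, filter, variance prior, arrays fitted, probe set and each PGC7 array left out. List entries with no probe set of their own were not analysed here.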

Additional observations from a re-analysis of the deposited data

Results flagged for a closer look

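Among the 10 genes, 3 had unequal changes in the lines, by the test of the difference or because every PGC7 array of one line moved against every one of the other. Egr1 had a difference of log2 changes, B16F10 minus NIH3T3, of 3.95 (limma adjusted p = 0.00126). Fos had 1.91 (adjusted p = 0.0736), opposite in every array and not called. Fosl1 at 1417488_at had -1.91 (adjusted p = 0.0241), but its B16F10 signals of 2.65 to 4.63 were at background, so no change could be read in that line and the value mostly restates the NIH3T3 change.

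Of the related genes named for a change in NIH3T3, B16F10 or both, 11 also had a called difference between the lines in limma's test, and Ddit3, Ccn2, Errfi1 and Map2k1 had none. Of all tested genes 8.93% had one. These genes were picked for a large called change in a line, so a called difference is partly built in. Those higher in B16F10 were Plk2 (4.04), Jdp2 (3.29), Zfp36l1 (1.94), Ier2 (1.06), Atf6 (1.04) and Braf (0.99). Those lower in B16F10 were Dusp4 (-5.11), Ereg (-3.06), Dusp6 (-2.76), Mafg (-0.99) and Nab1 (-0.94). Ereg had B16F10 signals of 0.738 to 2.18, at background, so its value too mostly restates its change in NIH3T3. The adjusted p of the 11 ran from 8.95e-05 for Dusp4 to 0.0474 for Braf.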

How the results depend on the processing

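Of 1007 values of single genes under an alternative, 893 kept direction and side of the threshold, 82 lost a call, 15 gained one and 17 turned sign. The 6 genes called in NIH3T3 became 3 as deposited, 3 with an offset of 1 and 2 with no variance trend, and 3 to 6 when 1 array was left out. The 4 in B16F10 became 2 with no variance trend, and 3 to 5 when 1 array was left out. The 3 called higher in both lines, counted under alternatives added after seeing the data, became 1 as deposited, 1 with each line's arrays alone, 0 with no variance trend and 1 to 3 when 1 array was left out; with no variance trend limma called 2 genes in each line. The 1 gene with a called difference between the lines became 2 as deposited, 2 with an offset of 32, 2 with an offset of 1 and 4 on the spikes, and 1 to 2 without 1 array. The 2 called across both lines became 1 as deposited, with an offset of 32, with no filter, with no variance trend and without any 1 array. The 8 called between the lines' levels became 5 when both lines had to pass the filter, which removes 3 of the genes. The 7 related genes called in B16F10 became 2 as deposited, 1 on the spikes, 3 with no filter, 1 with no variance trend, 21 with the line's arrays alone and 3 with the probe set of largest interquartile range, and 1 to 20 without 1 array. The cause was not tested. Over all probe sets, the calls in NIH3T3 went from 3229 to between 1292 (the line's arrays alone) and 6124 (without the uncloned array), and in B16F10 from 300 to between 59 (without clone 3) and 2865 (the line's arrays alone). A difference between lines was called for 1737 probe sets and for 739 to 4861 under alternatives, and a shared change for 39 and 5 to 103.

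Signs turned for these values. In B16F10 minus NIH3T3 levels as deposited, Egr1 was 0.80, Jun 0.10 and Ier3 1.16. On the spikes, the difference between the lines' changes was -0.11 for Atf3 and -0.24 for Junb, and Junb changed by 0.13 in NIH3T3 and -0.11 in B16F10. With an offset of 1 the Egr3 difference was 0.88. Fosb in NIH3T3 was 0.15 with quantile normalization, 0.33 on the spikes and ran from -0.051 to 0.059 without 1 array, turning without clone 2. Fosl1 in B16F10 ran from -0.31 to 0.081 without 1 array, turning without clone 1 or 3. Junb across both lines was -0.031 as deposited and ran from -0.11 to 0.20 without 1 array, turning without B16F10 clone 2 or 3. Ddit3 in B16F10 was -0.062 with the probe set of largest interquartile range.

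No paired analysis was possible because the controls carry no clone number and each line has 1 of them; leaving out a control was not run for that reason. Signals near background, as of Fosl1 and Egr3 in B16F10 and Fosb in NIH3T3, limit what can be read there. So do low control signals, as of Egr2 in B16F10 and Atf3 in NIH3T3.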
